A study of Rattus norvegicus with 300 samples.

Results

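The MHC class II genes of the rat are described here by 5 of the 17337 gene symbols counted in each library: Cd74, RT1-Ba, RT1-Bb, RT1-Da and RT1-Db1. They were chosen by name, not by their values. Their levels were followed over 60 groups of 5 libraries (10 brain regions in 6 treatments), and 2 of these groups, BLA and venDG of Control, are given apart from the other 58. The animals were male Long Evans rats that were 60 days old and carried no stated genetic change. For 3 weeks they drank plain water (Control), water with maltodextrin at 10 g/L (Maltodextrin), or water with a probiotic (Probiotics), FT, bupropion (15 mg/kg/day) or, at a daily 7.5 mg/kg, desipramine. The labels do not spell out FT. Fluoxetine, at 13 mg/kg/day, is the drug of the treatment protocol that no other group label names. The region labels are ILC, PLC and CGC, BLA, NACShell, mPOA, dorDG and venDG, Raphe and LConly. Each library came from tissue punches of 1 region that were pooled before RNA extraction, and the labels do not say whether a replicate number is 1 animal, so p-values measure the spread between these pooled samples.

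MHC class II molecules present peptides taken up from outside the cell to CD4+ T cells. Each is an α chain paired with a β chain. In the rat, RT1-Ba and RT1-Bb encode the α and β chains of RT1-B, the relative of human HLA-DQ, and RT1-Da and RT1-Db1 those of RT1-D, the relative of HLA-DR. Cd74 encodes the invariant chain, which holds the peptide groove closed until the molecule reaches an endosome, where cathepsin S cuts it and the DM molecule loads a peptide. The 5 genes share a promoter layout (the X box, bound by RFX, and the Y box, bound by NF-Y) that becomes active when the co-activator CIITA is present. In a healthy brain, class II is known mainly from macrophages and dendritic cells of the meninges, perivascular spaces and choroid plexus, and microglia carry little of it until they are stimulated, for example by interferon gamma.

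Library totals ran from 198260 to 18310687 counts with a median of 9232563, and 4 Desipramine libraries held fewer than 1000000 counts. Some groups went against their region label. The FT libraries labelled ILC held the noradrenergic marker Dbh at 255 CPM, and those labelled LConly held it at 0.651 CPM, so both are left out of the FT comparisons. ILC of Control held the cortical gene Slc17a7 at 23.4 CPM against 274 in Maltodextrin, and dorDG of Probiotics held the granule cell gene Prox1 at 29.6 CPM against 88.9 in Maltodextrin. BLA of FT held Ttr, a choroid plexus gene, at 7956 CPM against 30.7 in Maltodextrin. FT also held Oxt, a hypothalamic gene, at 213 ± 75.1 CPM in NACShell against 2.37 in Control, and Ttr at 5762 CPM in dorDG against 31.7. In LConly, Ttr was 6222 CPM in Maltodextrin and 16976 in Probiotics against 39.6 in Control. Results that use most of these groups are given with these values or with counts over CGC, mPOA, NACShell, PLC and Raphe alone. Those regions also differed in region genes between treatments. They include the FT libraries of NACShell with high Oxt. Oxt in mPOA was 372 CPM in Maltodextrin and 2230 CPM in Bupropion. Tph2 in Raphe was 464 CPM in Maltodextrin against 751 CPM in Control. The part of the tissue sampled in results from those regions was not tested. Levels are counts divided by the library total and multiplied by 1000000 (CPM), which do not correct for gene length, so levels are not compared between genes.

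In Control, class II transcripts were far higher in BLA and venDG than in any other group of the study. Cd74 stood at 519, 529, 610, 544 and 476 CPM in the 5 Control libraries of BLA (536 ± 48.5, SD, n = 5). It stood at 587, 567, 550, 571 and 559 CPM in those of venDG (567 ± 13.8, SD, n = 5). All 10 of these libraries lay between 476 and 610 CPM, far above the 83.2 CPM of Control mPOA, the highest of the other 58 group means. In Maltodextrin, the other group without a drug or bacteria, Cd74 was 6.12, 6.45, 8.91, 7.38 and 6.20 CPM in BLA and 19.4, 19, 15.5, 18.0 and 16.7 CPM in venDG. The Control means were 76.4 times the Maltodextrin mean in BLA and 32.0 times in venDG. These 2 groups were set apart for these levels, so they are described without a test. In bulk tissue, more cells of a type and more RNA per cell cannot be told apart.

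The α and β chains stood apart in the same 10 libraries. RT1-Da, the RT1-D α chain, was 140, 123, 132, 128 and 130 CPM in Control BLA and 93.8, 95.9, 87.5, 92.6 and 95.3 CPM in Control venDG. Its Maltodextrin means were 1.56 ± 0.387 and 3.67 ± 0.492 CPM (SD, n = 5), so the Control means were 83.9 and 25.3 times as high. RT1-Ba, the RT1-B α chain, was 99.7, 88.9, 97.1, 97.0 and 94.6 CPM in Control BLA and 71.2, 72.9, 63.9, 67.6 and 73.5 CPM in Control venDG. Those means were 101 and 25.9 times the Maltodextrin means of 0.945 ± 0.228 and 2.69 ± 0.644 CPM (SD, n = 5). Both α chains were higher in BLA than in venDG of Control, with no overlap between the libraries. With TMM-scaled CPM the means of the 2 regions were closer, at 82.0 and 77.7 for RT1-Ba and 112 and 104 for RT1-Da. RT1-Db1, the RT1-D β chain, was 85.0, 80.2, 85.8, 86.6 and 82.7 CPM in Control BLA and 73.5, 87.3, 74.8, 84.7 and 80.3 CPM in Control venDG, where the libraries of both regions overlapped. Its means were 26.4 and 10.7 times those of Maltodextrin (3.19 ± 0.339 and 7.46 ± 0.856 CPM, SD, n = 5), the smallest contrast of the 4 genes.

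RT1-Bb, the RT1-B β chain, was barely counted. It had 189 counts over all 300 libraries, was at 0 in 232 of them and was at 0 in all 5 libraries of 23 groups. Of these counts, 31 fell in Control BLA (0.616, 1.55, 0.675, 0.398 and 0.789 CPM) and 66 in Control venDG (0.552, 2.0, 1.02, 1.05 and 1.67 CPM). Every library of both groups held it, while the highest of the other 58 group means was 0.259 CPM, in Maltodextrin mPOA. It did not pass the filter on low counts in any region and has no test there.

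**Figure D1:**
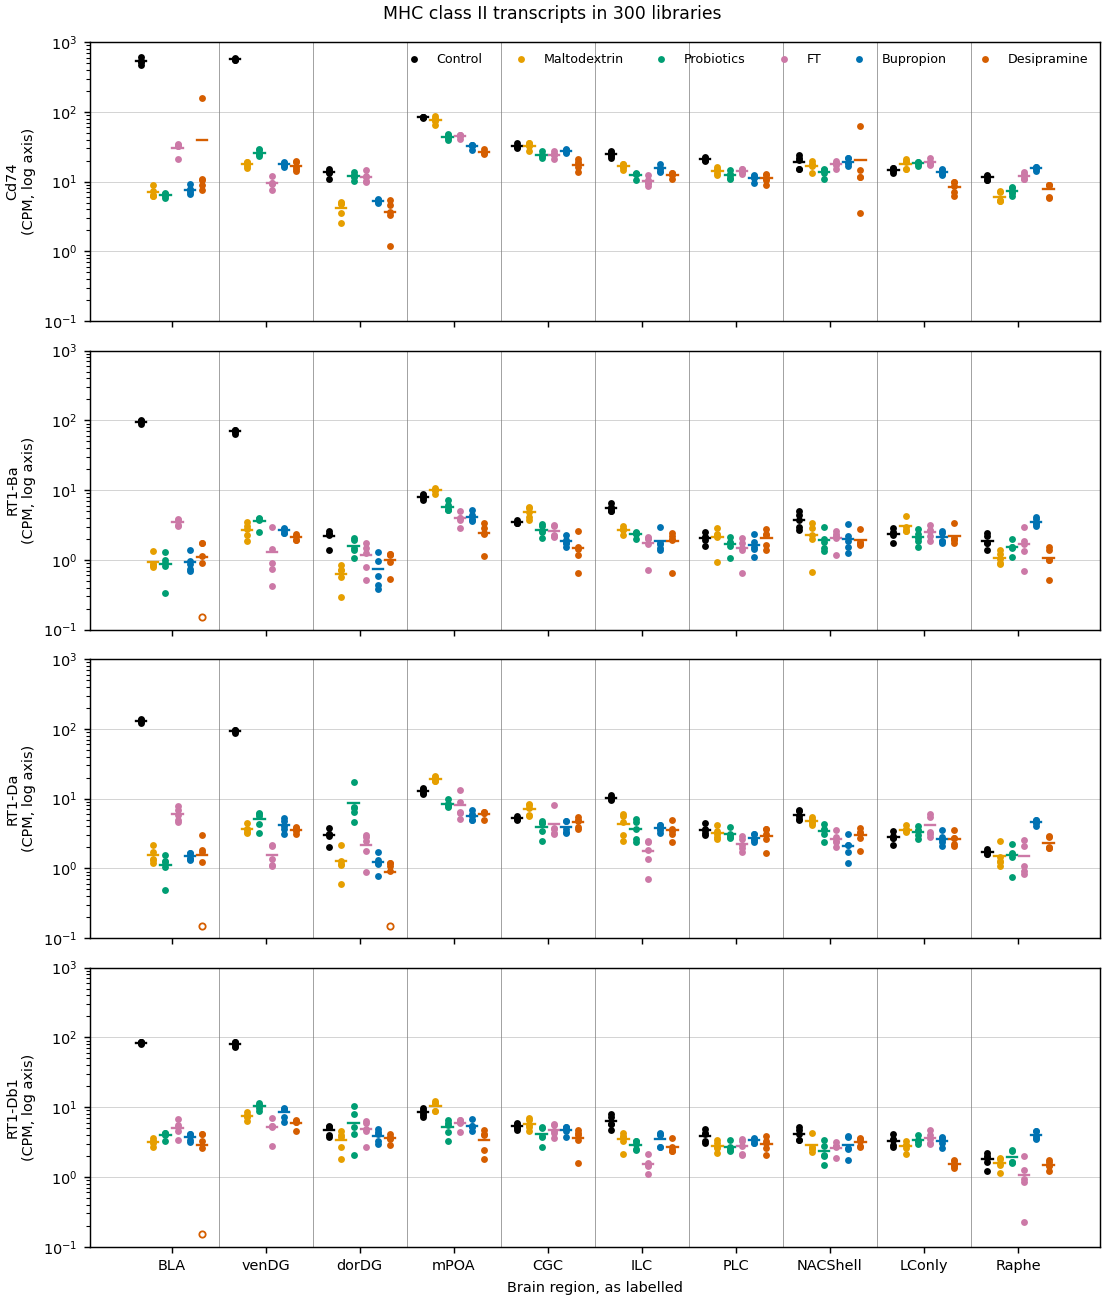
CPM of Cd74, RT1-Ba, RT1-Da and RT1-Db1 in every library, on a log axis, by region and treatment. The Control libraries of BLA and venDG lie above every other library of their regions for these 4 genes, and for Cd74 in Maltodextrin mPOA is the highest region.

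The stretch of promoter that holds the Y box match is shown for the 4 RT1 genes as background, and its part in their levels was not tested. All 5 members matched a gene of the RefSeq table of assembly GRCr8. The counts were made on rn6, so the positions belong to GRCr8 alone. Each stretch runs from 120 to 31 bases before the annotated start, 5′ to 3′ on the gene's strand, in lower case. Capitals mark the Y box letters CTGATTGG and the X box letters AGNNACNGA, searched on both strands.
RT1-Ba, chr20:4576937-4577026, plus strand: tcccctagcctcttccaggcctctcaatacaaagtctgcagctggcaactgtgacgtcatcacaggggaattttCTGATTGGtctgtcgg
RT1-Bb, chr20:4604149-4604238, minus strand: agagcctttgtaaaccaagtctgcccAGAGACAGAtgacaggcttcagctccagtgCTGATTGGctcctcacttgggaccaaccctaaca
RT1-Da, chr20:4515295-4515384, plus strand: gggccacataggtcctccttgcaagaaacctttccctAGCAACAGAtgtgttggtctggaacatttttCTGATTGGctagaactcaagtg
RT1-Db1, chr20:4560193-4560282, minus strand: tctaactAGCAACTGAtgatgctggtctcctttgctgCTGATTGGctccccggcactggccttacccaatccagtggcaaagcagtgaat
The Y box letters were found in all 4 RT1 promoters and in 3.5% of 33469 rat promoters of 300 bases. The X box letters were found in 18.1% of them. In RT1-Da, 22 bases separate the X match from the Y match, and in RT1-Db1 and RT1-Bb 21 bases do. Outside the stretch shown, RT1-Bb also has an X match 186 to 178 bases before its start. Another lies on the opposite strand, 198 to 190 bases before it. RT1-Ba has no X match before its start. Cd74 holds neither set of letters in its window. It holds CCAAT, which is part of the Y box on the other strand and stands in 37.5% of all promoters. The 4 RT1 genes lie together on chromosome 20 in the order RT1-Da, RT1-Db1, RT1-Ba and RT1-Bb. RT1-Db2, a close relative of RT1-Db1, lies between RT1-Da and RT1-Db1, and reads shared by the 2 relatives make the RT1-Db1 counts uncertain.

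The genes that accompany class II were read in the same Control libraries as a description, by asking which of them were above all 25 other libraries of the region. Of all genes with a mean of at least 1 CPM, 2.76% met this in BLA and 1.94% in venDG. In the microglia list, 8 of 18 genes did so in BLA (Aif1, Csf1r, Trem2, Tyrobp, C1qa, C1qb, C1qc and Laptm5). In venDG, 6 of 18 did (Csf1r, Itgam, Tyrobp, C1qa, C1qb and C1qc). C1qa, a subunit of complement C1q, was 492 ± 33.1 CPM in Control BLA against 159 ± 10.4 in Maltodextrin, and 390 ± 26.6 against 135 ± 16.2 CPM in venDG (SD, n = 5). The summed microglia list was 1683 CPM in Control BLA against 720 to 897 in the other treatments, and 1334 against 688 to 848 CPM in venDG. Those sums differ far less than the class II levels, and the part that cell number plays was not tested.

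Some genes of class I presentation and of peptide loading also stood apart. In the class I list, 4 of 11 genes in BLA (Psmb8, RT1-A1, RT1-A2 and RT1-S3) and 7 of 11 in venDG (Tap1, Tapbp, Psmb8, Psmb9, RT1-A1, RT1-A2 and RT1-S3) were above all other libraries of the region. RT1-A2, a classical class I heavy chain, was 73.8 ± 5.76 against 18.2 ± 1.28 CPM in BLA and 115 ± 7.75 against 21.0 ± 2.99 CPM in venDG (Control against Maltodextrin, SD, n = 5). Its reads may be split among near-identical class I genes. Ctss, the cathepsin that cuts the invariant chain, was 842 ± 28.7 against 575 ± 10.0 CPM in BLA. In the class II loading list, 3 of 4 genes at 1 CPM or more stood apart in BLA (Ctss, Lgmn and Ifi30) and 1 of 4 in venDG (Ifi30). The summed class II loading list of Control was 1377 CPM in BLA against 812 to 1031 in the other treatments, and in venDG its 959 CPM lay within their 781 to 1043 CPM. Ciita, the co-activator, was 2.32 ± 0.438 against 0.189 ± 0.155 CPM in BLA and 1.69 ± 0.249 against 0.0856 ± 0.117 CPM in venDG. Of the class II transcription list, Irf8 in venDG was above all other libraries and no gene was in BLA. Ciita itself fell below the limit of 1 CPM for that count.

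Other immune cell lists gave a mixed picture in these 10 libraries. The monocyte and neutrophil genes Plac8 and Fcnb stood apart in both regions. Plac8 was 79.3 ± 6.66 and 67.8 ± 4.40 CPM in Control BLA and venDG against 2.82 ± 1.14 and 3.18 ± 0.521 CPM in Maltodextrin (SD, n = 5). Cxcl13, a chemokine that draws B cells, was 16.1 ± 1.89 CPM in Control BLA and 109 ± 7.68 CPM in Control venDG, against 0.810 ± 0.323 and 0.119 ± 0.0786 CPM. Of the B cell list, Cr2, the complement receptor 2, stood apart in BLA (5.78 ± 0.813 against 0.553 ± 0.296 CPM) and no gene did in venDG. No gene of the T and NK cell list or of the dendritic cell list did in either region. Few genes of these lists reached the 1 CPM needed to be counted. In BLA and venDG these were 4 and 2 of 13 T and NK cell genes. They were 5 and 4 of 9 dendritic cell genes, and 3 and 1 of 11 B cell genes. The other BLA libraries include the Desipramine library with 198260 counts, so a gene at a low level could hardly stand above all of them. Of the border macrophage list, Ms4a7 stood apart in BLA and no gene did in venDG. The summed border macrophage list was 38.0 CPM in Control BLA against 19.3 to 32.5 CPM in the other treatments and 22.2 CPM in Control venDG against 18.8 to 28.5. The part of these cells in the class II levels was not tested.

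**Figure D2:**
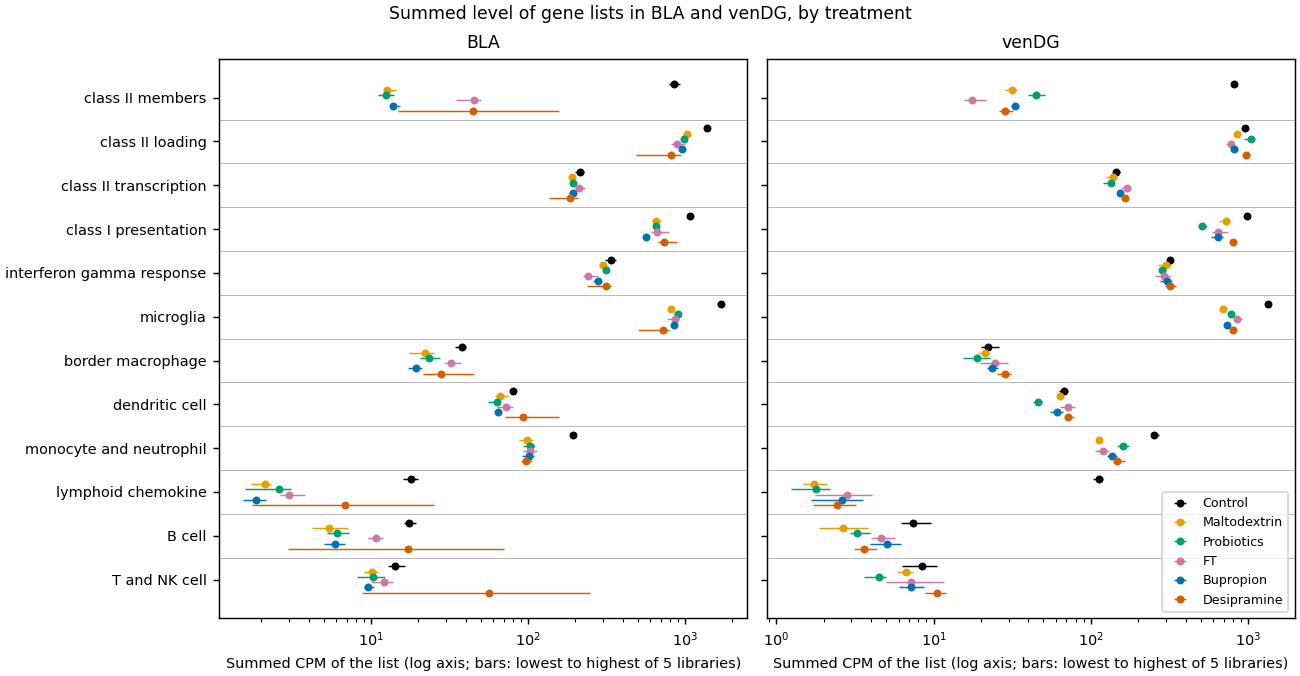
Summed CPM of the class II members and of cell type and pathway lists in BLA and venDG, by treatment. Points are group means, with bars from the lowest to the highest of 5 libraries. The class II sum of Control is separated from the other treatments by more than the microglia sum is.

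Regions were compared in the 50 Maltodextrin libraries, where mPOA had the highest mean of each of the 5 members, and dorDG, Raphe and BLA had the lowest means of Cd74, RT1-Ba and RT1-Da. Other treatments had other orders: in Probiotics, for example, RT1-Db1 was 10.3 CPM in venDG against 5.15 in mPOA. In Maltodextrin, each region was compared with the mean of the other 9 and called at an adjusted p under 0.05. Over all genes, 33.1% of gene-region tests were called higher and 32.5% lower. Of the 40 member-region tests, 13 were called higher and 14 lower, so the members' counts are near that background and the sizes carry the description. In Maltodextrin mPOA, Cd74 was 74.9, 80.7, 86.0, 65.4 and 76.8 CPM, which was 2.49 log2 units above the mean of the other regions (SE 0.0682, edgeR adjusted p = 1.24e-36). All 5 libraries exceeded every library of the other 9 regions. RT1-Da, RT1-Ba and RT1-Db1 were higher in mPOA by 2.55, 2.26 and 1.52 log2 units. CGC, second in order for Cd74 at 32.9 ± 3.36 CPM (SD, n = 5), was higher by 1.09 for Cd74 and by 0.51 to 1.05 for the 3 chains. In dorDG, Cd74 was 4.18 ± 1.13 CPM (SD, n = 5), with a log2 difference of -2.10 from the other regions (SE 0.138).

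In the Maltodextrin order of Cd74, 5 of the 9 neighbouring pairs overlapped. LConly (18.1 CPM), venDG (17.7 CPM), NACShell (16.9 CPM), ILC (16.5 CPM) and PLC (14.3 CPM) each overlapped with the next, as did BLA (7.01 CPM) with Raphe (6.06 CPM). RT1-Db1 had another order. It was 7.46 ± 0.856 CPM in venDG, which made venDG second after mPOA (10.5 ± 1.69 CPM, SD, n = 5), and its level in venDG was 1.24 log2 units above the other regions (SE 0.111, edgeR adjusted p = 1.88e-14) where Cd74 was 0.42 above. In dorDG, where Cd74, RT1-Ba and RT1-Da were called lower, RT1-Db1 was 3.33 ± 1.09 CPM and was not called.

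The share of RT1-Db1 relative to Cd74 shows the same difference. Pooled over 5 libraries, RT1-Db1 CPM was 79.2% of Cd74 CPM in dorDG of Maltodextrin, 45.5% in BLA and 41.7% in venDG. Its median over the 58 groups, as the mean of the libraries' ratios, was 21.2%. In Control, the ratio was 15.7% in BLA and 14.1% in venDG, below most other groups: 11 of the 58 were lower than Control BLA and 6 lower than Control venDG. For the ratio of RT1-Ba to Cd74, 48 of 58 groups lay below Control BLA and 18 below Control venDG. These ratios compare groups within a gene pair. A ratio of 2 genes does not give their relative abundance, since CPM does not correct for length.

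**Figure D3:**
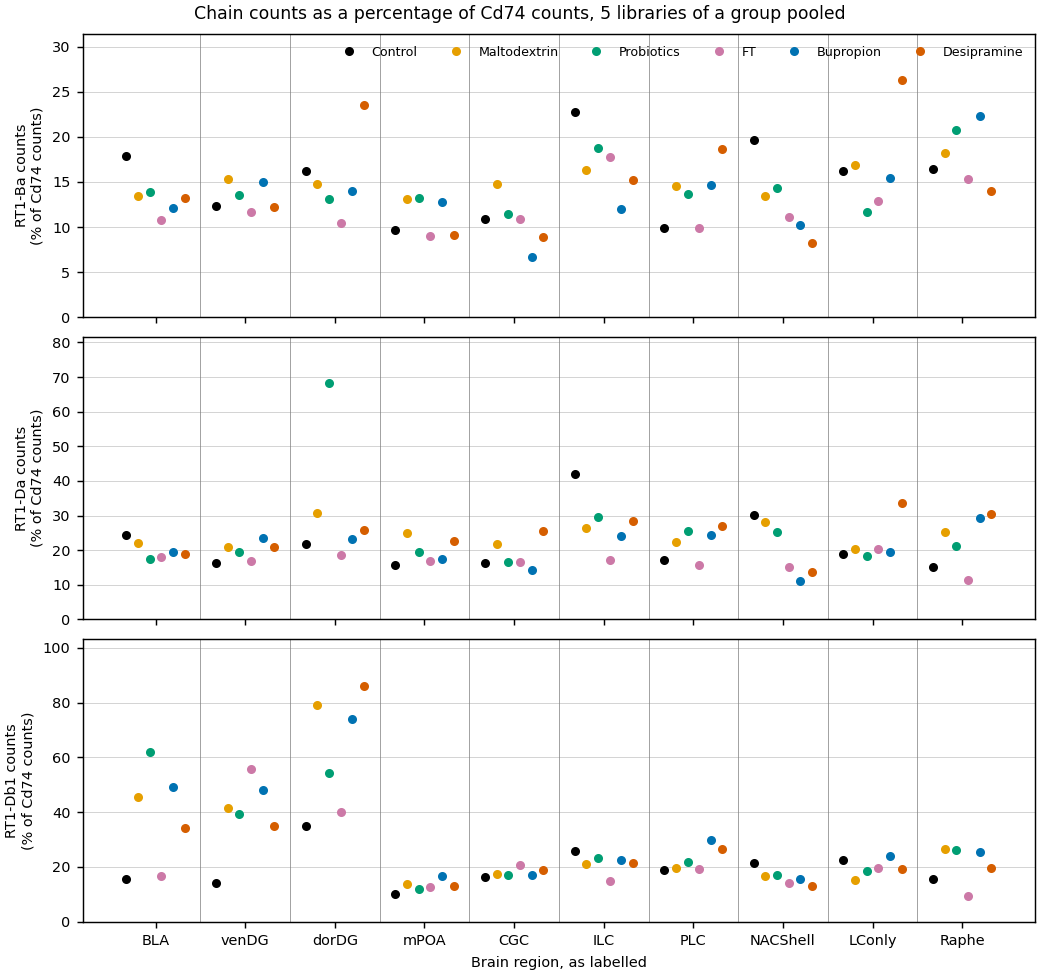
Counts of RT1-Ba, RT1-Da and RT1-Db1 as a percentage of Cd74 counts in each of the 60 groups, by region and coloured by treatment. The libraries of a group are pooled. RT1-Db1 reaches its highest percentages in dorDG and is at 15.7% and 14.1% in Control BLA and venDG.

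FT was compared with Control in 6 regions, which asks how the drug group differs from untreated animals. Class II was lower in FT in most of them. Of 24 member-region tests, 16 were called lower and 0 higher by edgeR, against 21.4% lower and 24% higher over all genes. For the comparisons with Control, and for Probiotics, such shares are pooled over regions. The share of all genes called, or without overlap, within a single region is not given. Counts within a region thus have no background of their own. DESeq2 called 0 higher too, and 0 were higher at an unadjusted p under 0.05. Of the 16 calls, 11 held in all alternatives tried. All 4 testable members were lower in mPOA. Cd74 there was 46.5, 46.2, 41.2, 46.8 and 45.5 CPM in FT against 83.5, 84.0, 80.4, 83.7 and 84.4 CPM in Control. The groups did not overlap, and the log2 difference was -1.02 (SE 0.0791, edgeR adjusted p = 2.14e-12). RT1-Ba, RT1-Da and RT1-Db1 differed by -1.11, -0.89 and -0.66. In NACShell the 3 chains were lower (-1.02 for RT1-Ba, -1.22 for RT1-Da and -0.80 for RT1-Db1), while Cd74 was 17.9 ± 1.77 against 19.4 ± 3.97 CPM (SD, n = 5) and was not called. These FT libraries are the ones with Oxt at 213 CPM, they hold 3 of the 16 lower calls, and the part of tissue makeup there was not tested. In Raphe, Cd74 was called lower at an adjusted p of 0.0499 (-0.27, edgeR) although its mean was 12.1 CPM in FT and 11.5 CPM in Control. The direction of that call thus rests on TMM scaling, and it was lost in 6 of 10 alternatives. In dorDG, where FT held the high Ttr, no member was called by edgeR, and 1 (RT1-Ba) had an unadjusted p under 0.05.

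Bupropion gave lower class II in some regions and higher class II in Raphe. Of 32 member-region tests in 8 regions, 16 were called lower and 4 higher, against 23.5% and 23.4% over all genes. Of these calls, 14 of the 16 and 3 of the 4 held in all alternatives. Over CGC, mPOA, NACShell, PLC and Raphe alone, 9 were lower and 4 higher. All 4 higher calls were in Raphe. RT1-Da was 4.90, 4.41, 4.61, 5.01 and 3.99 CPM in Bupropion Raphe against 1.91, 1.60, 1.78, 1.59 and 1.72 CPM in Control, with no overlap (log2 difference 1.24, SE 0.199, edgeR adjusted p = 6.22e-06). RT1-Db1 and RT1-Ba were higher there by 1.00 and 0.73. Cd74 was 15.9, 15.3, 14.3, 16.2 and 16.2 CPM against 10.7, 10.4, 12.3, 11.8 and 12.1 CPM, a difference of 0.28 (SE 0.109, edgeR adjusted p = 0.0369) that was lost in 4 alternatives. The summed microglia list in Raphe was 700 CPM in Bupropion against 666 in Control and the border macrophage list 24.95 against 18.9 CPM. Tph2 in Raphe was 463 CPM in Bupropion against 751 CPM in Control. The part of these lists and of Tph2 in the result was not tested.

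With Bupropion, all 4 testable members were lower in mPOA and in ILC, where the share of all genes called within each region is not given. Cd74 in mPOA was 28.2, 33.5, 33.7, 32.9 and 33.0 CPM, all under the Control libraries given above (log2 difference -1.32, SE 0.0786, edgeR adjusted p = 3.59e-14). In ILC, RT1-Ba and RT1-Da differed from Control by -1.72 and -1.59. Control ILC is the group with low Slc17a7, so the tissue sampled and the treatment cannot be told apart there. In NACShell, RT1-Da was 1.72, 2.19, 3.11, 1.21 and 2.14 CPM against 6.85, 5.0, 5.67, 5.08 and 6.64 CPM in Control (-1.54, SE 0.182, edgeR adjusted p = 1.03e-08), while Cd74 was 19.2 ± 2.24 against 19.4 ± 3.97 CPM (SD, n = 5) and was not called.

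Desipramine showed the most lower calls: 25 of 32 member-region tests were lower and 0 higher by edgeR, against 28.1% and 27.2% over all genes. No member was higher by DESeq2 or at an unadjusted p under 0.05. Of these, 21 held in all alternatives, and 16 were in CGC, mPOA, NACShell, PLC and Raphe. Cd74 in mPOA was 26.2, 25.9, 24.9, 26.3 and 29.6 CPM, the lowest of the 6 treatments there (log2 difference from Control -1.89, SE 0.0838, edgeR adjusted p = 3.39e-18). RT1-Ba, RT1-Da and RT1-Db1 differed by -1.95, -1.34 and -1.50. In LConly, Cd74 was 6.12, 7.05, 8.65, 9.83 and 9.80 CPM against 15.7, 13.2, 15.6, 14.0 and 14.6 CPM, and RT1-Db1 was 1.68, 1.33, 1.42, 1.50 and 1.77 CPM against 2.91, 2.68, 4.14, 3.47 and 3.43 CPM. Neither pair of groups overlapped, and the log2 differences were -1.10 and -1.35. Dbh in LConly was 62.5 ± 3.18 CPM in Desipramine against 140 ± 12.8 CPM in Control, and its part in the result was not tested. RT1-Ba in LConly was 2.21 ± 0.648 against 2.36 ± 0.414 CPM (SD, n = 5) and was not called.

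A pair of Desipramine libraries carried high Cd74 of their own. In NACShell, Cd74 was 3.5, 62.0, 14.5, 11.7 and 11.6 CPM, and the group was not called against Control (0.11). Without replicate 2 the difference was -0.92 (edgeR adjusted p = 2.62e-05). In BLA, Cd74 was 9.06, 10.8, 156, 10.4 and 7.56 CPM. The library at 156 CPM is the one with 198260 counts in all. It held 31 counts of Cd74 and none of RT1-Ba, RT1-Da or RT1-Db1, and its summed T and NK cell list reached 247 CPM.

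Maltodextrin differed from Control in 16 of 32 member-region tests, 15 of them lower, against 21% lower and 20.1% higher over all genes. Of the 15, 9 held in all alternatives, and 8 were in CGC, mPOA, NACShell, PLC and Raphe. In Raphe, Cd74 was 6.06 ± 1.04 against 11.5 ± 0.874 CPM (SD, n = 5; -0.98, SE 0.124, edgeR adjusted p = 2.88e-07). Tph2 in Raphe was 464 ± 12.6 CPM in Maltodextrin against 751 ± 25.4 CPM in Control, and its part in the result was not tested. In ILC all 4 testable members were lower, with Cd74 at 14.9, 17.8, 15.9, 16.1 and 17.9 CPM against 22.0, 23.8, 27.4, 23.5 and 26.5 CPM, beside the low Slc17a7 of Control ILC. The 1 higher call was RT1-Da in mPOA, at 18.2, 17.9, 17.7, 21.4 and 20.6 CPM against 12.1, 11.7, 13.8, 13.0 and 14.4 CPM in Control, with no overlap (0.45, SE 0.112, edgeR adjusted p = 0.00197). Cd74 was slightly lower in the same libraries (-0.22, adjusted p = 0.0192 by edgeR, lost in 4 alternatives).

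**Figure D4:**
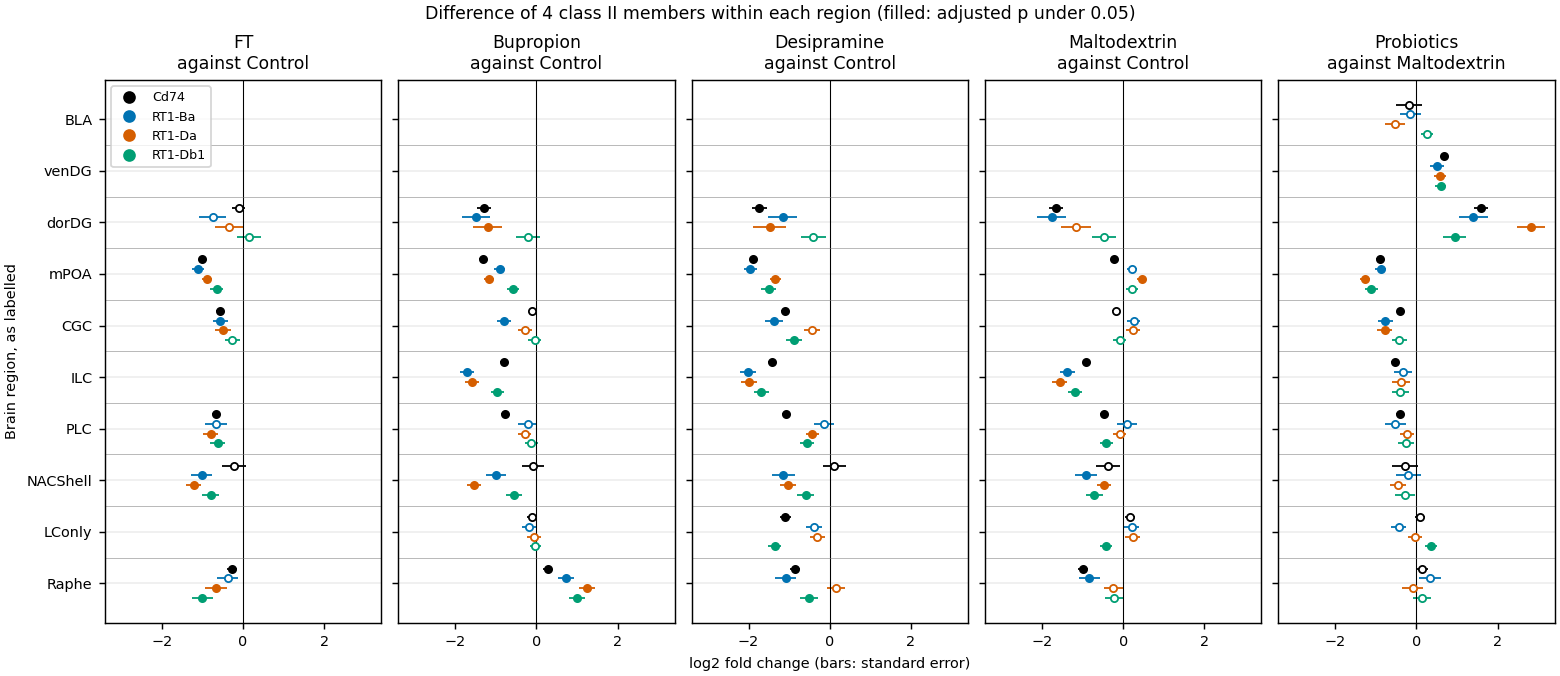
Log2 difference of Cd74, RT1-Ba, RT1-Da and RT1-Db1 by region for each comparison, with calls at an adjusted p under 0.05 marked. Desipramine has 25 lower calls, the Bupropion calls in Raphe are higher, and Probiotics differ from Maltodextrin in opposite directions in mPOA and dorDG.

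Probiotics were compared with Maltodextrin, the sugar control, in all 10 regions, and class II differed in opposite directions between regions. Of 40 member-region tests, 9 were called lower and 9 higher, against 21.1% and 21.7% over all genes, so the counts are near the background. All 9 lower calls and 7 of the 9 higher calls held in every alternative. All 4 testable members were lower in mPOA. Cd74 there was 47.5, 46.3, 42.0, 39.1 and 43.3 CPM in Probiotics, under all 5 Maltodextrin libraries (-0.91, SE 0.0791, edgeR adjusted p = 8.01e-11), and RT1-Da differed by -1.27. In CGC, Cd74, RT1-Ba and RT1-Da were lower, with log2 differences of -0.40, -0.77 and -0.78.

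The higher calls of Probiotics were in the dentate gyrus, apart from RT1-Db1 in LConly. That LConly call was lost in 9 of 10 alternatives. Ttr in LConly was 16976 CPM in Probiotics against 6222 in Maltodextrin, and its part in the result was not tested. In dorDG, Cd74 was 10.3, 12.5, 13.9, 11.7 and 12 CPM against 4.97, 3.52, 2.51, 4.76 and 5.13 CPM in Maltodextrin (1.60, SE 0.172, edgeR adjusted p = 6.79e-10). RT1-Da was 6.44, 7.34, 4.64, 7.61 and 17.6 CPM against 2.18, 1.13, 1.17, 0.595 and 1.28 CPM (2.82, SE 0.341). Neither pair of groups overlapped. Dorsal dentate libraries of Probiotics also held Prox1 at 29.6 CPM and the myelin gene Mbp at 597 CPM against 5799 in Maltodextrin. Their summed microglia list was 537 against 648 CPM and their border macrophage list 35.8 against 23.4 CPM. The part of tissue makeup in the class II difference was not tested. In venDG, where Cd74 was 29.5, 25.1, 24.8, 28.2 and 22.9 CPM in Probiotics, all 4 testable members were higher, by 0.68 for Cd74, 0.51 for RT1-Ba, 0.57 for RT1-Da and 0.59 for RT1-Db1. The RT1-Ba call was lost in 2 of 10 alternatives. Ttr in venDG was 5773 CPM in Probiotics against 12979 in Maltodextrin, and its part in the result was not tested. Over CGC, mPOA, NACShell, PLC and Raphe alone, no member was called higher.

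In BLA and venDG the drugs were compared with Maltodextrin, which leaves the Control libraries of these regions out of the contrast. FT was called in 8 of 8 member tests, higher in BLA and lower in venDG, against 55.9% and 36.5% of all genes called there. Cd74 in BLA was 20.8, 34.2, 33.7, 32.4 and 32.1 CPM in FT (2.07, SE 0.291, edgeR adjusted p = 4.91e-07), in the libraries that also held Ttr at 7956 CPM and Mbp at 61171 against 14098 CPM. The part of these genes' tissue in the class II level was not tested. In venDG, Cd74 was 12.2, 7.63, 9.31, 9.51 and 9.67 CPM in FT, under all Maltodextrin libraries (-1.09, SE 0.105, edgeR adjusted p = 4.03e-10), and Ttr was 737 ± 26.1 CPM against 12979 in Maltodextrin. For Bupropion, 0 of 8 member tests were called by edgeR or by DESeq2, and 0 had an unadjusted p under 0.05, against 25.9% of all genes in BLA and 27.9% in venDG. For Desipramine, RT1-Ba and RT1-Db1 were called lower in venDG (-0.52 and -0.47), against 26% of all genes called in BLA and 39.6% in venDG, and neither call held in all alternatives.

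mPOA is the region in which all 4 testable members were called lower for FT, Bupropion and Desipramine against Control and for Probiotics against Maltodextrin. The 3 drug comparisons share their Control libraries. Over the 6 treatments, Cd74 in mPOA ran from Control (83.2 CPM) and Maltodextrin (76.8 CPM), which overlapped, to FT (45.2 CPM) and Probiotics (43.7 CPM), which overlapped, and on to Bupropion (32.3 CPM) and Desipramine (26.6 CPM), which overlapped. The summed microglia list in mPOA did not follow that order: it was 866 CPM in Control, 883 in Maltodextrin, 869 in FT, 793 in Probiotics, 920 in Bupropion and 718 in Desipramine. The summed endothelial and mural list was 599 and 619 CPM in Control and Maltodextrin, 492 in Probiotics, and 314, 339 and 351 CPM in FT, Bupropion and Desipramine. The summed fibroblast list was 230 and 340 CPM in Control and Maltodextrin, 193 in Probiotics, and 138, 120 and 162 CPM in FT, Bupropion and Desipramine. The summed oligodendrocyte list was 54752 and 44653 CPM in Control and Maltodextrin, 41105 in Probiotics, and 28495, 52735 and 27998 CPM in FT, Bupropion and Desipramine. The border macrophage list was 33.3, 54.1, 38.4, 24.3, 29.2 and 32.6 CPM in Control, Maltodextrin, Probiotics, FT, Bupropion and Desipramine. The vessel and fibroblast sums were thus lower in Probiotics and the 3 drug groups than in Control and Maltodextrin, as Cd74 was. They did not follow the order of Cd74 over the treatments either, and their part in the result was not tested. In Control, Maltodextrin, Probiotics, FT, Bupropion and Desipramine, Oxt in mPOA was 1018, 372, 1263, 1547, 2230 and 669 CPM. The region gene Drd1 was 23.2, 53.5, 22.6, 12.4, 13.2 and 15.9 CPM in the same order. The part of differences in the tissue sampled was not tested.

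**Figure D5:**
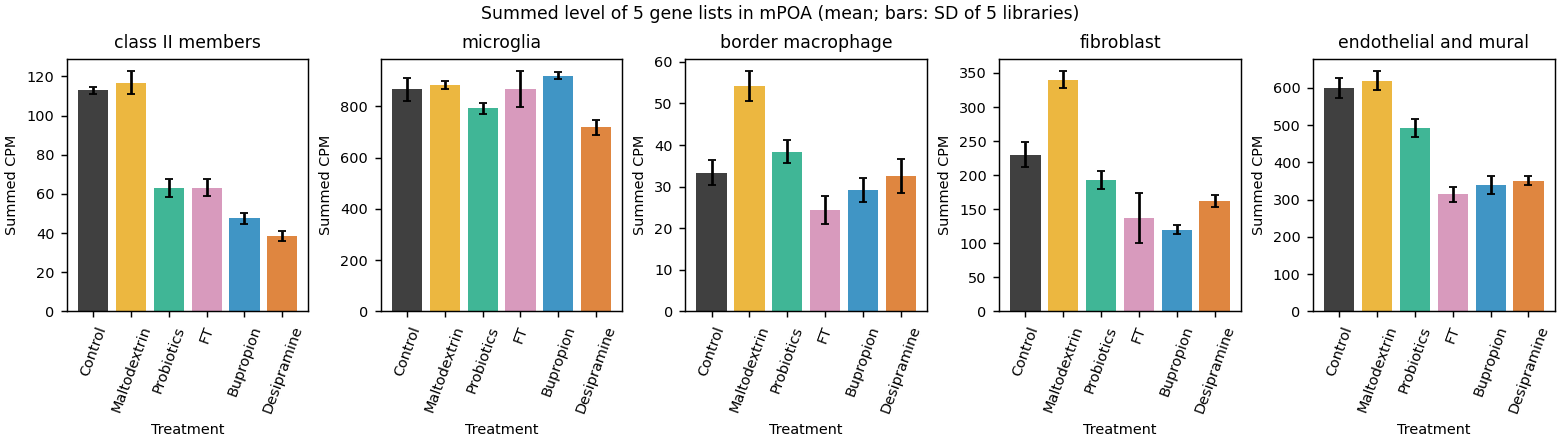
Summed CPM of the class II members and of the microglia, border macrophage, fibroblast, and endothelial and mural lists in mPOA, by treatment. Bars are group means, with the SD of 5 libraries. The class II, fibroblast and vessel sums are lower in FT, Bupropion and Desipramine than in Control and Maltodextrin, while the microglia sum of Bupropion is the highest.

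Counts were also summed over the regions of each replicate number, to give 1 difference per treatment. Cd74, RT1-Ba, RT1-Da and RT1-Db1 were all lower in FT, with log2 differences of -0.66 (SE 0.0834), -0.82 (SE 0.109), -0.79 (SE 0.117) and -0.50 (SE 0.114; edgeR adjusted p from 7.84e-08 to 0.000438), where 29.4% of all genes were called lower and 26% higher. In Bupropion the differences were -0.60, -0.71, -0.75 and -0.27 (adjusted p up to 0.0106 by edgeR, against 28.3% lower and 22.5% higher over all genes). The RT1-Db1 call was lost without replicate 3 (edgeR adjusted p = 0.0625). In Desipramine they were -1.23, -1.25, -1.03 and -1.03, against 37.6% and 27.3% over all genes. In Maltodextrin, Cd74, RT1-Ba and RT1-Db1 were lower (-0.39, -0.30 and -0.36), against 27.9% and 21.8%, and RT1-Da was not called (-0.21). Over CGC, mPOA, NACShell, PLC and Raphe alone, RT1-Ba (-0.029, edgeR adjusted p = 0.824) and RT1-Db1 (-0.10, edgeR adjusted p = 0.346) were not called and RT1-Da was 0.18 (edgeR adjusted p = 0.104). In Probiotics against Maltodextrin, Cd74 and RT1-Ba were lower (-0.22 and -0.29), against 22.1% lower and 33.8% higher over all genes, and RT1-Bb, RT1-Da and RT1-Db1 were not called. The Cd74 call was lost without replicate 3, 4 or 5 and the RT1-Ba call without replicate 2 or 5 (edgeR adjusted p up to 0.0722 and 0.0799). Over the 5 regions alone, RT1-Da (-0.85) was called and RT1-Db1 was called lower (-0.58). The median over all genes in these fits lay between -0.07 and 0.07.

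Whether a treatment's difference varied between regions was tested by itself. It varied for all 4 testable members with Bupropion, Desipramine, Maltodextrin and Probiotics. Over all genes, 86.5%, 85.1%, 85.5% and 82.3% were called in that test, so this is common in these data. For FT it varied for Cd74 (edgeR adjusted p = 2.25e-08) and RT1-Db1 (adjusted p = 0.00617) and was not called for RT1-Ba (0.122) or RT1-Da (0.0561), against 73.5% of all genes.

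Genes that work with class II were read in the same summed counts. Over all genes, the shares called lower and higher there were 29.4% and 26% in FT and 28.3% and 22.5% in Bupropion. They were 37.6% and 27.3% in Desipramine, 27.9% and 21.8% in Maltodextrin, and 22.1% and 33.8% in Probiotics. These shares are the background for the list counts here and in the paragraphs on transcription, class I and cell type lists. In the loading list, 3 of 7 tested genes were lower in FT (Ctss, Ctsl and Lgmn), 2 in Bupropion (Ctss and Lgmn), 5 in Desipramine (RT1-DMa, Ctss, Ctsl, Lgmn and Ifi30) and 4 in Maltodextrin (RT1-DMa, Ctss, Lgmn and Ifi30), and none was higher. Ctss differed by -0.64 (SE 0.0387) in FT, -0.33 (SE 0.0338) in Bupropion, -0.71 (SE 0.0340) in Desipramine and -0.46 (SE 0.0339) in Maltodextrin. Lgmn, the asparagine endopeptidase that also acts on the invariant chain, differed by -1.09 (SE 0.0494) in Desipramine. In Probiotics against Maltodextrin, Ctsl was lower (-0.07) and RT1-DMa (0.29) and Ifi30 (0.24) were higher, of 8 tested.

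Among the 10 genes for transcription of class II, the list did not move one way. Ciita was lower in Desipramine (-1.07, SE 0.448, edgeR adjusted p = 0.0367) and higher in Probiotics (1.3, SE 0.290, edgeR adjusted p = 0.000375), and was not called in FT, Bupropion or Maltodextrin. Rfx5, a subunit of the X box factor, was higher in all 4 comparisons with Control (0.41 in FT, 0.27 in Bupropion, 0.55 in Desipramine and 0.24 in Maltodextrin). Counting lower and higher, the list gave 5 and 1 in FT, 1 and 4 in Bupropion, 7 and 2 in Desipramine, 1 and 2 in Maltodextrin, and 3 and 3 in Probiotics.

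Class I genes were lower beside class II in 7 of 11 tests in FT, 6 in Bupropion, 9 in Desipramine and 5 in Maltodextrin, with 0, 1, 2 and 1 higher. RT1-A2 differed by -0.69 (SE 0.0684), -0.18 (SE 0.0624), -0.90 (SE 0.0642) and -0.40 (SE 0.0631). B2m, the light chain of class I, was lower in FT (-0.16) and Bupropion (-0.10) and higher in Desipramine (0.14) and Maltodextrin (0.35). The interferon gamma list was mixed, with 5 lower and 3 higher of 14 in FT, 4 and 1 in Bupropion, 4 and 3 in Desipramine, 2 and 3 in Maltodextrin and 3 and 3 in Probiotics.

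Of the 18 microglia genes, 13 were lower and 2 higher in FT, 6 and 4 in Bupropion, 12 and 3 in Desipramine, 12 and 1 in Maltodextrin, and 3 and 6 in Probiotics against Maltodextrin. C1qb differed by -0.44 (SE 0.0681) in FT and -0.73 (SE 0.0691) in Desipramine and was not called in Bupropion. The endothelial and mural list was lower in 11 of 14 genes in FT, Bupropion and Desipramine each, in 5 in Maltodextrin and in 6 in Probiotics, with 0, 1, 2, 4 and 2 higher. The oligodendrocyte list was lower in 6 of 6 genes in FT (median -0.90) and in Desipramine (median -0.74), and in 3 each in Bupropion and Maltodextrin. Of 10 choroid plexus genes, 8 were higher in FT, 9 in Maltodextrin and 8 in Probiotics, and 7 were lower in Desipramine. The fibroblast list gave 4, 5, 3, 1 and 5 lower and 3, 0, 1, 4 and 1 higher of 8 in the order FT, Bupropion, Desipramine, Maltodextrin and Probiotics. The medians of the class II members in these fits were -0.73 in FT, -0.65 in Bupropion, -1.13 in Desipramine and -0.33 in Maltodextrin, beside microglia medians of -0.34, 0.09, -0.36 and -0.19. The part of these cell types in the class II differences was not tested.

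Across the 60 group means the members followed each other, with Pearson's r between 0.804 and 0.951 for pairs of members on the log2 scale. Without the 2 Control groups, r lay between 0.410 and 0.888 over 58. The groups share regions and treatments, so these are descriptions. Within groups, over all 300 libraries, Cd74 and the 3 testable chains had r between -0.127 and -0.356. The spread within groups was near that of counting alone. The median ratio of SD to counting SD over the 58 groups was 1.19 for Cd74 and 0.967 to 1.06 for the chains. The Desipramine BLA library with 198260 counts, with Cd74 at 156 CPM and the 3 chains at 0, is also included. These r thus cannot show whether the genes vary together within a group. Of 11934 genes that are no members, the group means most like the mean of the members belonged to Plac8 (r = 0.871), Fcnb (0.865), Cd68 (0.855), Ifi47 (0.852), LOC100910973 (0.831), RT1-A2 (0.821), Fcgr3a (0.816), Cybb (0.749), Ripk3 (0.745) and C4a (0.741) over 60 groups. Cd68, a lysosomal protein of macrophages, was 12.5 CPM in Control BLA against 1.56 in Maltodextrin. Over the 58 groups the list had no gene in common with that one: Serping1 (0.836), Mfap5 (0.779), Cpxm2 (0.774), Gstm2 (0.770), Ccl6 (0.761), Chmp4c (0.760), Inmt (0.758), Aebp1 (0.748), Tekt2 (0.748) and Vim (0.744) led. Serping1, the C1 inhibitor of the complement cascade, was 29.99 CPM in Control mPOA and 6.28 CPM in Control BLA.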

How the data were processed

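RNA was sequenced as stranded, paired-end total RNA libraries, per the labels' protocols. Read counts per gene symbol were deposited by the authors as 1 table of 300 columns, and 0 columns matched no sample. Per the submitters' processing notes, the tools were STAR, HTSeq and FastQC on rn6, and the sources used here do not give their versions or how strand and multi-mapped reads were handled.

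Counts were tested with edgeR 4.0.16 (R 4.3.3), using TMM scaling, filterByExpr, the quasi-likelihood test and Benjamini-Hochberg adjustment over all genes tested, with calls at an adjusted p under 0.05. Each region was fitted on its 30 libraries. RT1-Bb did not pass the filter within regions. Sums over regions per replicate used an offset for each region's depth (6 regions for FT, 8 for the other comparisons with Control, 10 for Probiotics). The difference between regions was an interaction test with each replicate of each treatment as a block. The comparison of regions in Maltodextrin used replicate number as a block. CPM is 1000000 times the count over the library total, and log2(CPM + 0.5) was used for correlations over group means. The fits were tested on simulated data. No 2 libraries of a group agreed within sampling noise (600 pairs, lowest chi-square per degree of freedom 1.34).

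The members, gene lists and comparisons were chosen with earlier results of these data known. The members are named in every comparison, and list genes are named by highest mean CPM (at most 4 a list) or where a count is 5 or fewer. The longer groups of genes above all 25 libraries, the values of Ciita, and the region genes Slc17a7, Prox1, Ttr, Mbp, Tph2, Oxt and Drd1 were chosen after they were seen. The genes most like the members are the 10 with the highest r among genes with a mean of at least 1 CPM. Between treatments of a region, the deviations of same-numbered libraries had a mean r of 0.0534 (from -0.392 to 0.588), so numbers were not used to pair treatments. Between regions of a treatment the mean r was 0.109 for the same number and -0.0173 for other numbers. Alternatives were DESeq2 1.42.0, RLE size factors, no filter, only the groups compared, a replicate block, leaving out each replicate, and leaving out libraries with fewer than 1000000 counts. Counts over 5 regions alone were added after the data were seen.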

Additional observations from a re-analysis of the deposited data

Results flagged for a closer look

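Of 248 groups of 5 libraries tested for a library far from the rest by Dixon's 95% limit (0.71 for 5 values), 24 held one, and chance gives about 1 in 20. For Cd74 these were Control mPOA replicate 3 (80.4 CPM), FT BLA replicate 1 (20.8 CPM), FT mPOA replicate 3 (41.2 CPM), Bupropion mPOA replicate 1 (28.2 CPM), Desipramine BLA replicate 3 (156 CPM), Desipramine NACShell replicate 2 (62.0 CPM) and Probiotics ILC replicate 3 (10.4 CPM). For RT1-Ba they were Maltodextrin BLA replicate 1 (1.35 CPM), Maltodextrin LConly replicate 2 (4.24 CPM), Bupropion ILC replicate 1 (2.93 CPM), Desipramine ILC replicate 2 (0.640 CPM), Desipramine LConly replicate 4 (3.35 CPM), Desipramine NACShell replicate 2 (2.73 CPM), Probiotics ILC replicate 1 (2.02 CPM) and Probiotics venDG replicate 2 (2.53 CPM). For RT1-Da they were Maltodextrin Raphe replicate 1 (2.44 CPM), FT CGC replicate 1 (8.16 CPM), Desipramine dorDG replicate 1 (0 CPM), Desipramine mPOA replicate 5 (4.98 CPM), Probiotics PLC replicate 3 (3.95 CPM) and Probiotics dorDG replicate 5 (17.6 CPM). For RT1-Db1 they were Maltodextrin NACShell replicate 5 (4.23 CPM), Desipramine venDG replicate 4 (4.58 CPM) and Probiotics BLA replicate 4 (3.26 CPM).

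The treatment difference varied between regions in 18 of 20 interaction tests with edgeR. The adjusted p-values for Cd74, RT1-Ba, RT1-Da and RT1-Db1 were 1.16e-24, 4.03e-15, 2.81e-24 and 1.51e-11 with Bupropion and 4.41e-07, 1.35e-08, 1.30e-14 and 4.47e-07 with Desipramine. They were 6.04e-14, 1.71e-12, 9.95e-17 and 2.22e-07 with Maltodextrin and 4.45e-24, 1.31e-08, 1.83e-18 and 5.84e-10 with Probiotics. With FT they were 2.25e-08 for Cd74 and 0.00617 for RT1-Db1.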

How the results depend on the processing

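Counts over CGC, mPOA, NACShell, PLC and Raphe alone turned the summed log2 difference of RT1-Da in Maltodextrin to 0.18 and of RT1-Db1 in Probiotics to -0.58. In these regions alone, RT1-Db1 in Bupropion (-0.11) and RT1-Ba and RT1-Db1 in Maltodextrin (-0.029 and -0.10) were no longer called, and RT1-Da in Probiotics (-0.85) was. The counts of lower calls fell to 9 (Bupropion), 16 (Desipramine) and 8 (Maltodextrin), and higher calls with Probiotics to 0.

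RT1-Da in Maltodextrin was called with only the groups compared (-0.20) and over all 10 regions (-2.46, a sum that holds the Control BLA and venDG libraries set apart for their high levels, which fix it), and RT1-Da in Probiotics with no gene-wise offset (-0.23). Leaving out each replicate gave -0.35 to -0.21 for RT1-Db1 in Bupropion, -0.27 to -0.19 for Cd74, -0.38 to -0.23 for RT1-Ba and -0.012 to 0.16 for RT1-Db1 in Probiotics, where the calls of RT1-Db1 in Bupropion and of Cd74 and RT1-Ba in Probiotics were each lost at least once. It gave 1 to 2 higher calls in Maltodextrin, and for Desipramine against Maltodextrin 0 to 2 lower and 0 to 1 higher calls. That lower count was 1 with no filter and 1 with only the groups compared, and the higher count 1 with DESeq2. Cd74 in Desipramine NACShell was -0.0065 with DESeq2 and -0.92 to 0.36 without each replicate. With TMM-scaled CPM, Control BLA and venDG stood at 461 and 631 CPM for Cd74, 82.0 and 77.7 for RT1-Ba, 112 and 104 for RT1-Da, and 72.2 and 89.1 for RT1-Db1. The causes were not tested.

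The replicate block left the summed differences nearly as they were (-0.66 for Cd74 in FT, -0.60 in Bupropion). It gave 8 higher calls for Probiotics instead of 9, and 3 lower calls for Desipramine against Maltodextrin instead of 2. Of the member-region differences, 74 were called under no setting. RT1-Bb, with 189 counts in all, was too shallow for tests within regions.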
